A study of Mus musculus with 8 samples.

Results

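*Gja5*, the mouse gene for the gap junction protein Cx40, was 1 of the 24303 genes listed for P14 CD8+ T cells, and its values are described here together with those of the other connexin and pannexin genes. It was selected on its normalized counts in these same libraries, which were close to 0 outside the T_Dysf group and high within it. Its own levels are therefore a description, and no test was applied to them. The genes set beside it were the 9 other listed genes whose symbol starts with Gja, Gjb, Gjc or Panx.

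P14 cells are CD8+ T cells from mice with a transgenic T cell receptor for GP33, a peptide of the virus LCMV, and the cells of the 4 groups came from mouse spleen and were activated for 2 days on plates coated with antibodies to CD3 and CD28. Acute-2d cells then received no peptide, Acute-7d cells received GP33 up to day 7, and collection of either was on day 19. The dysfunctional cells, T_Dysf, received GP33 up to day 19 and TGF-β1 from day 7, with collection on the same day. Effector cells were collected on day 7, and their labels give no further detail of treatment. The paper describes the sequenced cells as antigen-experienced, and labels day 7 cells in its cytometry as Effector 7d-stim. Each group had 2 libraries of sorted cells, which the submitters call biological replicates. The labels do not say which mice or pooled cultures a library came from, so p-values measure only the spread between these samples. T_Dysf cells differed from Acute-7d cells both in continued GP33 and in TGF-β1, and the effects of the 2 cannot be told apart in these data.

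Connexins assemble into hemichannels in the cell membrane, and hemichannels of adjoining cells dock to form gap junctions that pass ions and small metabolites. Cx40 is best known from atrial muscle, the ventricular conduction system and the endothelium of arteries, and is not among the standard markers of T cells. Pannexins form related channels that open to the outside, and Panx1 is known as a route of ATP release in T cells.

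The model of *Gja5* in the GRCm38 build has 2 exons on the plus strand of chromosome 3. The RefSeq gene runs from 97032402 to 97053634. The first exon of the annotated transcript (97032416 to 97032485, 70 bases) is untranslated, and the second (97050596 to 97053634, 3039 bases) holds the whole coding sequence of 358 codons, from 97050629 to 97051702, followed by the 3′ UTR. The span of an annotated antisense gene, *4930573H18Rik* (97046656 to 97092785, minus strand), covers the second exon, but its own exons were not examined. *4930573H18Rik* had no row among the genes analysed here, and whether the counting used strand is not given in the sources used here. Any reads of the antisense gene within that exon could therefore not be told apart from those of *Gja5*.

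The 250 bases before the start of *Gja5* are shown because this gene was close to silent in 6 libraries and abundant in 2. Those before *Tjp1*, which encodes the gap junction scaffold ZO-1, are shown beside them because *Tjp1* was also higher in T_Dysf in each comparison below. Both were taken from RefSeq (GRCm38.p6) and are written 5′ to 3′ on the strand of the gene. *Gja5* lies at chr3:97032152-97032401 (plus strand) and *Tjp1* at chr7:65371245-65371494 (minus strand). Capitals mark matches to GGAAA and GGGCGG on either strand.
Gja5: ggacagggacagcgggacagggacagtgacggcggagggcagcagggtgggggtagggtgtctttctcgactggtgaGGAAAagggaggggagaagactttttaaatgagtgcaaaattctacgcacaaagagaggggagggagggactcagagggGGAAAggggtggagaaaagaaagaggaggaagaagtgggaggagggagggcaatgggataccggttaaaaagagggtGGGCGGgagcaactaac
Tjp1: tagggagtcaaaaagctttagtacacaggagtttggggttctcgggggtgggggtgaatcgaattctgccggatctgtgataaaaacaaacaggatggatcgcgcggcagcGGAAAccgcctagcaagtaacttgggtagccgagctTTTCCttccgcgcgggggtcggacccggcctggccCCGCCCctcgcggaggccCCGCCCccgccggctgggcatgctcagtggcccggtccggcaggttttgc

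The *Gja5* stretch was rich in purines. A or G made up 76.8% of its bases on this strand, against a median of 50% over 32851 promoter windows of the same length, of which 0.09% reached as high a share, and against 52.8% for *Tjp1*. Its G or C share was 56.4%, and that of *Tjp1* was 63.2%. Motifs were searched on both strands, and none of the matches overlapped another in *Gja5*. GGAAA, the core bound by NFAT proteins, occurred 2 times in each gene and at least once in 55.6% of all windows. GGGCGG, a GC box, occurred 1 time in *Gja5* and 2 times in *Tjp1*, and in 32.7% of all windows. CAGAC, a SMAD box, and TGANTCA, an AP-1 site, had no match in either gene, and occurred in 42.2% and 6.70% of all windows. A match is a run of letters only, and no match says only that those letters are not in this window.

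Depth on genes ran from 19382147 to 24856224 reads, estimated from the worth of a single read in each library. Values are normalized counts, which the authors made by dividing estimated reads by a size factor for each library, and 3 reads, taken as the floor, were worth between 2.59 and 3.35 normalized counts. T_Dysf replicate 1 stood apart in that 52.3% of its values under 1000 reads were whole multiples of a read, against 73.0% to 75.7% in the other libraries, so T_Dysf replicates are given separately. RESUB, a prefix that the labels leave unexplained, stands before the library name in both Effector libraries and Acute-7d replicate 1, 3 of the 8. In T_Dysf against Effector, the prefix and the day of collection (7 against 19) run with the group and cannot be told apart from it. Only Acute-7d holds libraries with and without the prefix, so a RESUB term in a fit rests on the difference between its 2 libraries. The 8 markers of T cells fixed for a check of identity were all listed, and their summed level was 136900 to 141800 in T_Dysf and 76630 to 91820 in the other libraries. In both T_Dysf libraries 6 of the 8 were above all others, while *Cd2* (T_Dysf mean 3458, other groups 6651 to 8599) and *Cd5* (692 against 1768 to 3411) were below. In bulk libraries, fewer cells that express a gene and less RNA per cell cannot be told apart.

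*Gja5* had 1.83 and 2.01 normalized counts in the Effector libraries, which were 2 reads in each. The Acute-2d libraries had 1.06 and 3.24, or 1 and 3 reads. The Acute-7d libraries had 1.12 and 2.02, or 1 and 2 reads. All 6 libraries outside T_Dysf were thus at or under the floor of 3 reads. The T_Dysf libraries had 3585 and 4001 normalized counts, from 4153 and 4497 reads, and the second exceeded the first 1.12-fold. No library outside T_Dysf came near either of them.

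The T_Dysf mean was 3793 ± 294 normalized counts (SD, n = 2). Effector had a mean of 1.92 ± 0.126, Acute-2d one of 2.15 ± 1.54 and Acute-7d one of 1.57 ± 0.639. The order of the levels was T_Dysf, Acute-2d, Effector and Acute-7d. The last 3 did not differ beyond their spread, since the lowest and the highest of their libraries were both in Acute-2d. In RPM, which scale the reads of a gene to all reads on genes, *Gja5* had 167 and 184 in T_Dysf and 0.0492 to 0.148 elsewhere.

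A ratio of reads is given with its exact counting interval (Clopper-Pearson, 95%), because so few reads stood in the other groups. The interval covers counting error only, not the difference between cultures, and reads were pooled over the libraries of a group. It takes no account of the choice of *Gja5* for this same gap, so ratios and intervals are descriptive. *Gja5* had 8650 of the 49233603 reads in T_Dysf and 11 of the 125606073 reads in the 6 other libraries, a ratio per read of 2006 (interval 1121 to 4020). Against Acute-7d alone, with 3 reads, the ratio was 2361 (807 to 11449). Against Acute-2d, with 4 reads, it was 1783 (696 to 6546). Against Effector, also with 4 reads, it was 1964 (767 to 7208). These intervals overlap widely, and the ratio therefore gives no order among the 3 groups.

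Both T_Dysf libraries lack the RESUB prefix, so the same ratio was taken within the libraries without it. The 3 such libraries outside T_Dysf held 6 reads of *Gja5*, with a ratio of 1801 (827 to 4910). The 3 RESUB libraries held 5 reads, and the ratio against them was 2252 (965 to 6937). *Gja5* was chosen for low values in every library outside T_Dysf, so low values on both sides of this split were fixed in advance. The ratios are a description, and a part of the prefix in the *Gja5* levels was not tested.

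Levels of different genes were compared per kilobase of exon. *Gja5* stood at 1153 and 1287 normalized counts per kb in T_Dysf replicates 1 and 2, which ranked 1284th and 1116th of the 15088 genes with a known length. Those ranks fall in the top 8.51% and the top 7.40%. In the other libraries its rank was between 12326 and 13467. In T_Dysf it was therefore among the more abundant genes.

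The other connexin genes stayed near the floor in T_Dysf as elsewhere. Reference annotation holds 19 genes with the symbols Gja, Gjb, Gjc or Panx, of which 10 were listed, *Gja5* included, and the other 9 were not analysed here. *Gja1* encodes Cx43, the most widely expressed connexin and often reported in lymphocytes. It had 7.31 and 6.02 normalized counts in Effector, 5.27 and 3.24 in Acute-2d, 0 and 3.03 in Acute-7d, and 3.45 and 1.78 in T_Dysf. Its T_Dysf libraries lay within the range of the others. *Gja4* encodes Cx37, which partners Cx40 in arterial endothelium. It had 3.66 and 2.01 normalized counts in Effector, 0 and 1.08 in Acute-2d, 1.12 and 2.02 in Acute-7d, and 1.73 and 3.56 in T_Dysf. Both Acute-2d libraries of *Gja4* lay below the 6 others, but near the floor, where 1.08 and 1.12 each stand for 1 read. Its T_Dysf libraries did not stand clear of the rest.

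*Gja6*, *Gja10*, *Gjb2* (Cx26) and *Gjb6* (Cx30) were similarly low. *Gja6* had 2.59 and 4.45 normalized counts in T_Dysf, against 0 to 5.05 elsewhere. *Gjb2* had 6.04 and 1.78 in T_Dysf, against 0 to 5.02 elsewhere, and *Gja10* had 0.863 and 0, against 0 to 4.21. *Gjb6* was at 0 in all but Effector replicate 1, which had 0.914. None of these genes separated the T_Dysf libraries from the others.

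Among the pannexins, *Panx1* was abundant in every group. It had 1083 and 1297 normalized counts in Effector, 1224 and 1127 in Acute-2d, 947 and 1024 in Acute-7d, and 1057 and 1087 in T_Dysf. Both Acute-7d libraries lay below the 6 others, by small steps, and the T_Dysf libraries lay between those of Acute-7d and Acute-2d. T_Dysf was 0.12 above Acute-7d on the log2 scale (SE 0.104, adjusted p = 0.525, moderated test of limma, Benjamini-Hochberg). T_Dysf against Acute-2d gave −0.13 (adjusted p = 0.478 by the same limma test), and T_Dysf against Effector gave −0.15 (adjusted p = 0.408, likewise limma). Per kilobase, *Panx1* stood at 187 normalized counts in T_Dysf and between 172 and 208 in the other groups, whereas *Gja5* stood at 1220 in T_Dysf. *Panx2* had 3.45 and 0 normalized counts in T_Dysf against 0 to 3.16 elsewhere, and *Panx3* had 0 and 0.890 against 0 to 3.35.

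**Figure D1:**
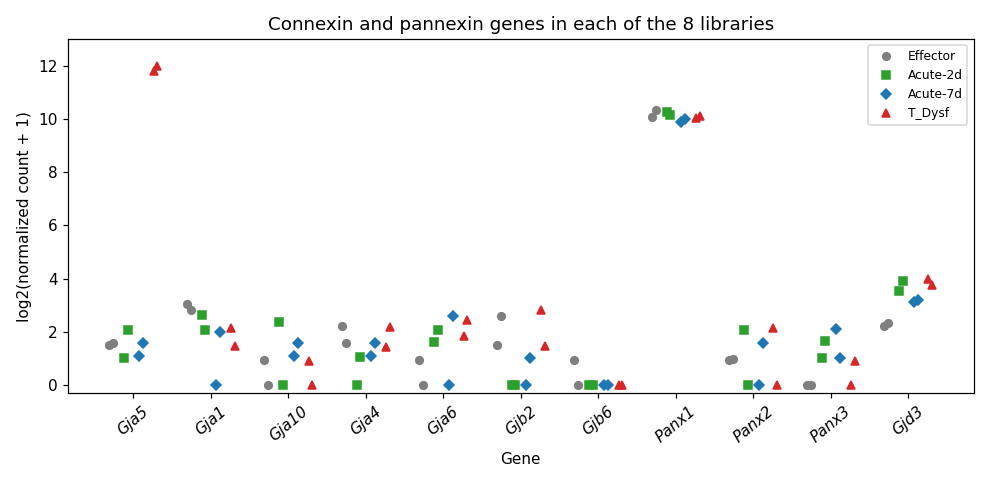
Levels of *Gja5* and the 10 other listed connexin and pannexin genes in each of the 8 libraries. The horizontal axis names the gene and the vertical axis is log2(normalized count + 1); each point is 1 library, shaped and coloured by group. *Gja5* lies near 12 in both T_Dysf libraries and near the bottom of the axis in the 6 others, while *Panx1* lies near 10 in all groups.

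Group differences were tested with limma on log2(normalized count + 1) over all 24303 genes, and a gene was called when it changed at least 2-fold with an adjusted p under 0.05. Of the 9 connexin and pannexin genes beside *Gja5*, 0 were called between T_Dysf and Acute-7d by limma, where 5.57% of all genes were called, and 0 of the 9 had an unadjusted p under 0.05. Between T_Dysf and Acute-2d, limma called 0 of 9 against 7.35% of all genes, and 2 had an unadjusted p under 0.05. Between T_Dysf and Effector it called 0 of 9 against 9.22%, with 0 at an unadjusted p under 0.05. Between the rested groups, Acute-7d and Acute-2d, it called 0 of 9 against 0.169%, again with 0 at an unadjusted p under 0.05. The median log2 differences of the 9 genes in these comparisons were 0.28, 0.00, −0.02 and 0.00, beside 0.00 over all genes in each. Over all genes, 26.1%, 27.7%, 31.7% and 7.31% had an unadjusted p under 0.05 in the same order of comparisons. Since 8 of the 9 lay near the floor, a change in them was not detectable at this depth unless large.

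*Gjd3* falls outside the symbols that defined the comparison and is given beside them. It had 3.66 and 4.01 normalized counts in Effector, 10.5 and 14.0 in Acute-2d, 7.81 and 8.08 in Acute-7d, and 14.7 and 12.5 in T_Dysf. It was higher in T_Dysf than in Effector by 1.59 on the log2 scale (SE 0.302, adjusted p = 0.0314, limma). The call was lost under 13 of the alternative settings, which leave out 1 library or change the pseudocount, the block or the samples fitted, with adjusted p between 0.0134 and 0.278 there, the lowest of these at a change under 2-fold. *Gjd3* was not called against Acute-7d (0.70, adjusted p = 0.231, limma) or Acute-2d (0.14, adjusted p = 0.845, limma).

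*Gja5* had the widest gap between T_Dysf and the other libraries of the genes with a T_Dysf mean of at least 50, as its choice implies. The lower T_Dysf library was divided by the highest of the 6 others, with that value raised to the worth of 3 reads where it was lower, for these 11676 genes. *Gja5* came 1st with a ratio of 1107. In all, 63 genes reached 10 and 9 reached 100. The next was *Itgae*, the gene for the integrin CD103, at 374, with 37825 and 40456 normalized counts in T_Dysf and at most 101 elsewhere. *Il10*, encoding an immunosuppressive cytokine, had a ratio of 184. The others above 100 were *Gm2629* (187), *Apol9b* (185), the SOCS-box gene *Spsb1* (161), the immunoglobulin gene *Igha* (120), the sphingosine 1-phosphate receptor gene *S1pr3* (114) and *Tgfb3*, the gene of a TGF-β ligand (101). *Adgrg1*, an adhesion G protein-coupled receptor gene, came 10th at 93.2. Per kilobase, *Gja5* in T_Dysf (1220) was below *Itgae* (10180) and *Adgrg1* (2842), and above *Apol9b* (964), *Tgfb3* (884), *Il10* (478), *Spsb1* (452) and *S1pr3* (190).

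The *Gja5* ratio kept its 1st place under rescaling to equal 75th percentiles (1069) or equal totals (1126), and without any one library other than T_Dysf replicate 2. Without that library it came 3rd, behind 2 entries named here after their values were seen, *Rpl10-ps1* and *Gm49369*. Without T_Dysf replicate 1 the ratio was 1235 and it came 1st. Since *Gja5* was chosen for this gap, its place under any setting is a description and lends the gap no support.

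**Figure D2:**
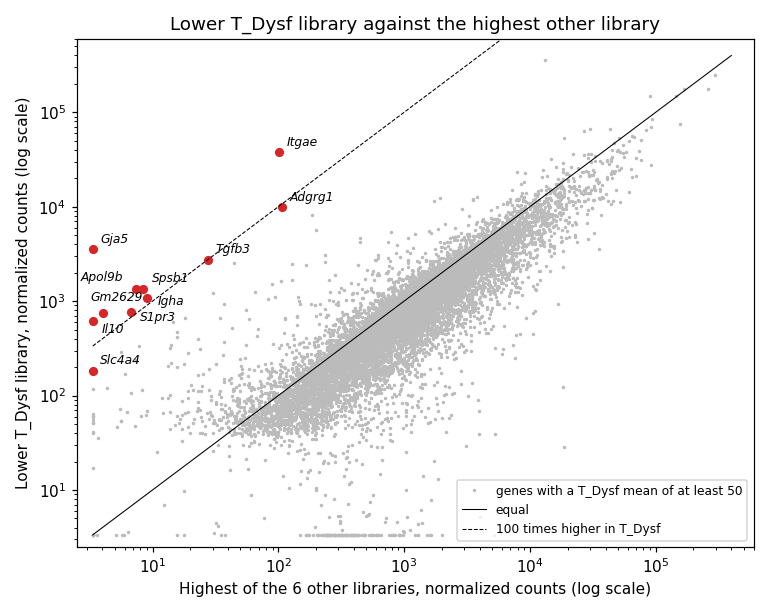
Lower T_Dysf library (vertical) against the highest of the 6 other libraries (horizontal), both in normalized counts on log scales, for the 11676 genes with a T_Dysf mean of at least 50; values under the worth of 3 reads are drawn at it. Red points mark the 10 genes with the highest ratio and *Slc4a4*, the solid line marks equal values and the dashed line a ratio of 100. *Gja5* lies at the left edge, farthest above the dashed line, at a ratio of 1107.

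A smaller group of genes shared the near silence of *Gja5* elsewhere. At or under 3 reads in all 6 other libraries and above 3 reads in both T_Dysf libraries stood 160 genes. Of these, 13 had a T_Dysf mean of at least 50, 4 of at least 100, and 1, *Gja5*, of at least 1000. *Il10* followed with a T_Dysf mean of 626 normalized counts, from 615 and 637. *Slc4a4*, a sodium bicarbonate cotransporter gene, had 188, and *Tmem132e* had 156. The next, *Cd300lb*, had 71.6.

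Likeness to *Gja5* was measured by Pearson's r of log2(normalized count + 1) over the 8 libraries, for the 13174 genes that reached 50 normalized counts in any library. The 8 points of each gene are in effect a pair of T_Dysf libraries against 6 others, so r describes that shape and was not tested. It was at least 0.99 for 8 genes and at least 0.95 for 206. Among the 10 most alike were *Gm50035* (0.995), *Itgae* (0.995), *Gm33699* (0.994), *Tspan31* (0.994), *Maco1* (0.994), *Gm11922* (0.993), *Tgfb3* (0.993), *Atp6v1d* (0.989) and *Gm39323* (0.988). A shared shape was not a shared size of change. *Tspan31*, a tetraspanin gene, had 1714 to 1837 normalized counts in the 6 other libraries and 2681 and 2698 in T_Dysf. *Maco1* had 594 to 639 elsewhere, and 1181 and 1318 in T_Dysf. *Tgfb3* had 14.0 to 27.4 elsewhere, and 2756 and 3228 in T_Dysf.

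Of 14 genes for gap junction assembly, scaffolds and turnover, 2 were higher in T_Dysf than in Acute-7d, 4 than in Acute-2d and 4 than in Effector, and 0 were lower in any of these (limma). At an unadjusted p under 0.05 there were 5, 6 and 7, or 35.7%, 42.9% and 50% of the list, beside 26.1%, 27.7% and 31.7% of all genes. Over all genes, 2.54%, 3.14% and 4.47% were called higher in the same comparisons, and 3.03%, 4.21% and 4.75% lower. The median log2 differences of the list were 0.19, 0.26 and 0.26, beside 0.00 over all genes. The list and all genes were not matched for level. A minimum of 50 on the mean keeps 11 of the 14, but 12028 of all 24303 genes. The higher shares in the list therefore cannot be told apart from its higher levels. The comparisons share the T_Dysf libraries and are not independent of each other. The list was chosen with earlier results of these data known, so its counts and medians are a description and not an independent test. Between Acute-7d and Acute-2d limma called 0 of the 14, beside 0.169% of all genes. There, 2 (14.3%) had an unadjusted p under 0.05, beside 7.31% of all genes.

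*Tjp1* encodes ZO-1, which binds the tails of connexins, Cx40 among them, at the edge of the junction. It had 32.0 and 22.1 normalized counts in Effector, 107 and 112 in Acute-2d, 602 and 299 in Acute-7d, and 2854 and 2757 in T_Dysf. The groups did not overlap. T_Dysf exceeded Effector by 6.67 on the log2 scale (SE 0.367, adjusted p = 0.00233, limma). It exceeded Acute-2d by 4.66 (adjusted p = 0.00481, limma) and Acute-7d by 2.72 (adjusted p = 0.0199, limma). The last call was lost when the 2 groups were fitted alone (adjusted p = 0.082, limma) and without Acute-2d replicate 1 (0.0515), Acute-2d replicate 2 (0.0514), T_Dysf replicate 1 (0.112) or T_Dysf replicate 2 (0.0655). Unlike *Gja5*, *Tjp1* was above the floor in every library. The difference of Acute-7d over Acute-2d, 1.94, did not pass (adjusted p = 0.354, limma).

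*Src* encodes a tyrosine kinase that phosphorylates connexins and is known to close Cx43 channels. It had 18.3 and 13.04 normalized counts in Effector, 16.9 and 9.72 in Acute-2d, 13.4 and 8.08 in Acute-7d, and 662 and 738 in T_Dysf. The 6 libraries outside T_Dysf overlapped and lay far below both T_Dysf libraries. The log2 difference was 5.94 against Acute-7d (SE 0.411, adjusted p = 0.00482, limma), 5.66 against Acute-2d (adjusted p = 0.00400, limma) and 5.41 against Effector (adjusted p = 0.00447, limma). With a term for the RESUB libraries the last was 6.08 with an adjusted p of 0.0537 (limma), so that call was lost.

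*Myo6*, the gene of a myosin of endocytic traffic, was called against Acute-2d (1.29, adjusted p = 0.0462, limma) and Effector (1.43, adjusted p = 0.0305, limma). Both *Myo6* calls were lost without any 1 library of Acute-2d, Acute-7d or T_Dysf, with adjusted p of 0.0942 to 0.178 against Acute-2d and 0.0671 to 0.132 against Effector. *Nedd4*, encoding a ubiquitin ligase that acts on Cx43, was called against Effector alone (1.32, adjusted p = 0.0126, limma), and lost that call without T_Dysf replicate 1 (0.0688) or replicate 2 (0.0502). The most abundant genes of the list on the normalized count scale were *Dnm2*, *Cltc*, *Ap2m1* and *Csnk1d*, which encode parts of the endocytic machinery and a connexin kinase, and limma called none of them in any comparison.

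Among other large-pore channel genes, 9 of 11 were listed. Against Acute-7d limma called 1 higher and 0 lower (4 at an unadjusted p under 0.05), and against Acute-2d also 1 higher and 0 lower (6 at an unadjusted p under 0.05). Against Effector it called 0, with 4 at an unadjusted p under 0.05, and between Acute-7d and Acute-2d 0, with 0 at an unadjusted p under 0.05. Over all genes, 2.54% were called higher against Acute-7d and 3.14% against Acute-2d, and 9.22% were called in either direction against Effector. An unadjusted p under 0.05 was found in 26.1%, 27.7% and 31.7% of all genes against Acute-7d, Acute-2d and Effector. Between Acute-7d and Acute-2d, 0.169% of all genes were called and 7.31% had an unadjusted p under 0.05. The list medians were 0.13, −0.13, −0.25 and 0.04 on the log2 scale. A minimum of 50 on the mean keeps 6 of these 9 genes and 12028 of all 24303, so the shares are not matched for level. The gene called was *Lrrc8d*, a subunit of the volume-regulated anion channel. Its log2 difference was 1.10 against Acute-7d (SE 0.141, adjusted p = 0.0175, limma), 1.30 against Acute-2d (adjusted p = 0.00946, limma) and 0.63 against Effector (adjusted p = 0.0464, limma). Without T_Dysf replicate 1 the first 2 were 0.98 and 1.17, with adjusted p of 0.0898 and 0.0545 (limma). The call against Acute-7d was also lost without Acute-7d replicate 1 (0.0897) or replicate 2 (0.0573), and that against Acute-2d without Acute-2d replicate 1 (0.0565). *Lrrc8c*, another subunit and the most abundant of the list by normalized count, had a T_Dysf mean of 6528 normalized counts against 3925 to 5864 for the other groups, and was not called.

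**Figure D3:**
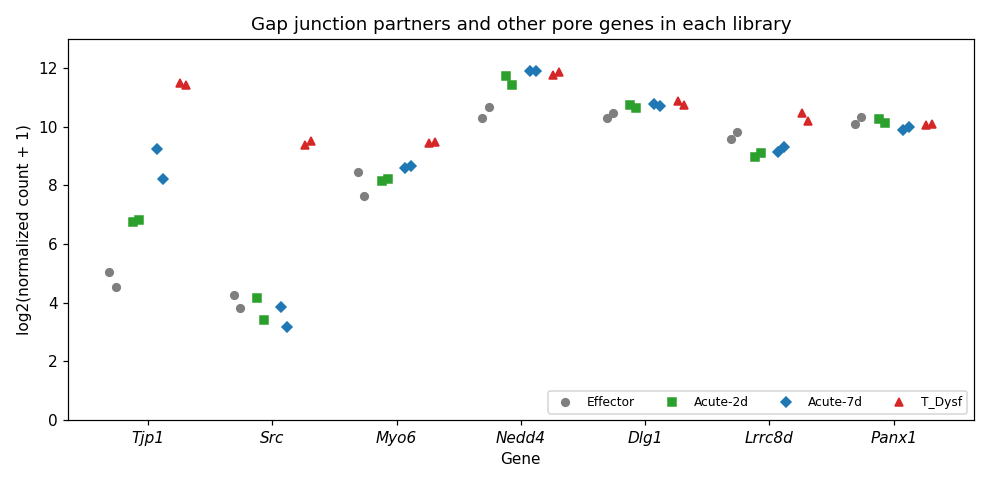
Levels of 5 gap junction partner genes (*Tjp1* to *Dlg1*), *Lrrc8d* and *Panx1* in each library. The horizontal axis names the gene and the vertical axis is log2(normalized count + 1); each point is 1 library, shaped and coloured by group. *Tjp1* is ordered Effector, Acute-2d, Acute-7d and T_Dysf, *Src* is high in T_Dysf only, and the libraries of *Panx1* lie close together.

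Of 18 genes tied to *Gja5* transcription in heart and vessels, 13 were listed, and *Tbx5*, *Nkx2-5*, *Gata4*, *Irx3* and *Hey2* were not analysed here. Limma called 0 higher and 1 lower against Acute-7d (2 at an unadjusted p under 0.05) and 0 higher and 1 lower against Acute-2d (3 at an unadjusted p under 0.05). It called 0 against Effector and 0 between Acute-7d and Acute-2d, with 2 at an unadjusted p under 0.05 in each. The unadjusted counts were 15.4%, 23.1%, 15.4% and 15.4% of the 13, in the order of the comparisons. Over all genes the shares were 26.1%, 27.7%, 31.7% and 7.31%. The shares of all genes called in either direction were 5.57%, 7.35%, 9.22% and 0.169%, so that 1 of 13 is near the background. The list medians were −0.09, −0.13, −0.01 and 0.00 on the log2 scale. This background is not matched for level, since a minimum of 50 on the mean keeps 5 of these 13 genes and 12028 of all 24303. The gene called lower was *Acvrl1*, encoding ALK1, a receptor of the TGF-β superfamily in endothelium, with a T_Dysf mean of 13.5 ± 5.29 normalized counts (SD, n = 2). Acute-7d had a mean of 68.0 ± 10.9, Acute-2d of 689 ± 276 and Effector of 27.5 ± 7.90. The log2 difference was −5.56 for T_Dysf against Acute-2d (SE 0.443, adjusted p = 0.00500, limma) and −2.29 for T_Dysf against Acute-7d (adjusted p = 0.0456, limma). The second call was lost without any 1 of the 8 libraries, with adjusted p between 0.0617 and 0.157. *Acvrl1* was thus low where *Gja5* was high, but also low in Effector, where *Gja5* was near 0 (−0.99, adjusted p = 0.207, limma).

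*Rbpj*, the DNA-binding partner of activated Notch, was higher in T_Dysf by less than 2-fold, at 0.78 against Acute-7d (adjusted p = 0.00382, limma), 0.92 against Acute-2d (adjusted p = 0.00189, limma) and 0.38 against Effector (adjusted p = 0.0125, limma). *Notch1* had means between 4036 and 4338 normalized counts in the 4 groups. *Hopx* had 2007 in T_Dysf and from 2139 (Effector) to 3510 (Acute-7d) in the others. *Sp1* lay between 2988 and 3069. None of these 3 passed limma's test against T_Dysf in any comparison. *Hey1*, *Sox17*, *Sox18* and *Dll4* were each under 8 normalized counts in both T_Dysf libraries.

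*Gja5* was set beside the protein-coding genes that start within 500 kb of it, of which 17 of 19 were listed. The others were not analysed here. Limma called 0 of the 17 between T_Dysf and Acute-7d (7 at an unadjusted p under 0.05), beside 5.57% of all genes. Against Acute-2d it called 1 higher and 2 lower (8 at an unadjusted p under 0.05), beside 7.35% of all genes. Against Effector it called 4 higher and 1 lower (10 at an unadjusted p under 0.05), beside 9.22% of all genes. Between Acute-7d and Acute-2d it called 0, with 4 at an unadjusted p under 0.05, beside 0.169% of all genes called. The unadjusted counts were 41.2%, 47.1%, 58.8% and 23.5% of the 17, in the order of the comparisons. Over all genes the shares were 26.1%, 27.7%, 31.7% and 7.31%. Of all genes, 3.14% were called higher and 4.21% lower against Acute-2d, and 4.47% and 4.75% against Effector. The list medians were −0.04, −0.04, 0.27 and 0.01 on the log2 scale. Neighbours and all genes were not matched for level, as a minimum of 50 on the mean keeps 13 of the 17 and 12028 of all 24303. Neighbours above all 6 other libraries in both T_Dysf libraries were *Lix1l*, *Pias3*, *Nudt17* and *Rnf115*, by at most 1.58-fold over the highest of the others. *Lix1l* had 132 and 214 normalized counts in T_Dysf and 58.5 to 85.8 elsewhere. It was not called against Acute-7d (1.20, adjusted p = 0.0858, limma) or Acute-2d (1.26, adjusted p = 0.0676, limma), but was called in all 3 T_Dysf comparisons when genes were filtered at 50 on the mean (adjusted p of 0.045 against Acute-7d and 0.0348 against Acute-2d, limma) or on the maximum (0.0416 and 0.0313). *Pias3* had 1287 and 1284 in T_Dysf and 415 to 812 elsewhere.

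The nearest listed gene after the end of *Gja5* was *Acp6*, a lysophosphatidic acid phosphatase gene, 126.4 kb away by start. It had 379 and 363 normalized counts in Effector, 971 and 1301 in Acute-2d, 782 and 766 in Acute-7d, and 505 and 543 in T_Dysf. It was lower in T_Dysf than in Acute-2d by the test (−1.10, SE 0.145, adjusted p = 0.0148, limma), and not called against Acute-7d (−0.56, adjusted p = 0.0861, limma). The first call was lost without T_Dysf replicate 1 (0.0897) and fell under 2-fold without Acute-2d replicate 2 (−0.89). The nearest before the start was *Gpr89*, the gene of a Golgi pH regulator, 164.1 kb away. It had 448 and 504 normalized counts in T_Dysf and 429 to 776 elsewhere, with a log2 difference of −0.22 for T_Dysf against Acute-7d (adjusted p = 0.254, limma).

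*Bcl9*, a cofactor of β-catenin, was lower in T_Dysf than in Acute-2d (−1.89, adjusted p = 0.00911, limma) and missed both limits against Acute-7d (−0.99, adjusted p = 0.0505, limma). The call against Acute-2d was lost without Acute-2d replicate 1 (0.0563). Against Acute-7d it passed both limits after rescaling to equal 75th percentiles (−1.07, adjusted p = 0.0379, limma). *Pdzk1* was higher than in Acute-2d (2.31, adjusted p = 0.0424, limma) at levels of 10.4 and 15.5 normalized counts in T_Dysf, and the call was lost without any 1 library (0.0536 to 0.158). Against Effector, *Lix1l* (1.48), *Itga10* (1.26), *Pias3* (1.42) and *Nudt17* (2.61) were called higher and *Cd160*, a receptor gene of activated CD8+ T cells, lower (−1.11), with adjusted p from 0.0107 to 0.0484 (limma). These 5 calls against Effector were all lost without T_Dysf replicate 1, those of *Lix1l* and *Itga10* without any 1 library, those of *Nudt17* and *Cd160* without any 1 library but Effector replicates 1 and 2 respectively.

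**Figure D4:**
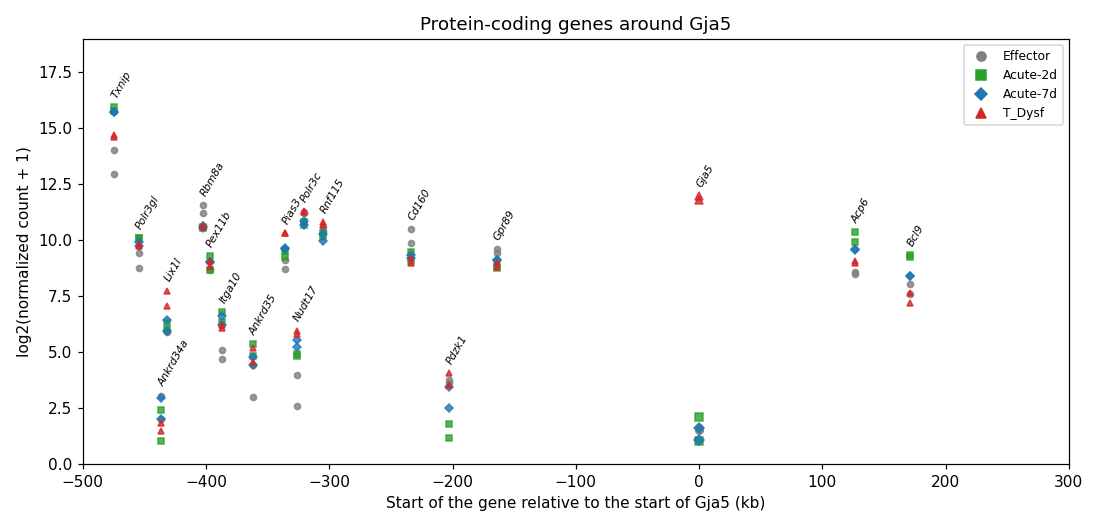
Levels of *Gja5* and the 17 listed protein-coding genes that start within 500 kb of it. The horizontal axis is the distance of the gene's start from that of *Gja5* in kb and the vertical axis is log2(normalized count + 1); each point is 1 library, shaped and coloured by group. The points of *Gja5* at distance 0 split into 2 T_Dysf libraries near 12 and 6 others under 2.5, and no neighbour has a gap of that size.

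Markers of cells known for Cx40 were checked in the same libraries. Of 12 endothelial markers, all listed, the summed level was 1241 to 1265 normalized counts in T_Dysf and 1497 to 2218 elsewhere. *Pecam1*, which T cells also express, made up most of it. Without *Pecam1* the sums were 129 to 171 and 113 to 212, and the highest value of any of the remaining 11 in T_Dysf was 44.9. For 0 of the 12 were both T_Dysf libraries above all 6 others. The defining endothelial marker *Cdh5* had 21.4 and 30.8 normalized counts in T_Dysf and 16.2 to 32.6 elsewhere.

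Of 8 markers of heart muscle, 4 were listed, with sums of 12.4 to 20.7 in T_Dysf and 11.04 to 40.02 elsewhere, and 3 of the 4 were at or under 3 reads in T_Dysf. *Tnnt2*, the cardiac troponin T gene, was at 0 in both T_Dysf libraries. Smooth muscle and fibroblast markers (10 of 10 listed) summed to 79.2 to 85.4 in T_Dysf and 76.4 to 128 elsewhere. Myeloid markers (8 of 8) summed to 593 to 656 in T_Dysf and 542 to 989 elsewhere. B cell markers (5 of 5) summed to 153 to 168 and 55.8 to 178, and platelet and erythroid markers (4 of 7) to 44.0 to 66.7 and 49.4 to 111. The T_Dysf sums of these lists did not exceed the range of the other libraries. For B cell markers this rested on Effector (136 to 178), since T_Dysf lay above Acute-2d (109 to 116) and Acute-7d (55.8 to 68.7). *Cd79b* made up most of the B cell sum in T_Dysf (mean 125). Without it the sums were 32.8 to 38.25 in T_Dysf and 25.7 to 53.2 elsewhere. In each of the smooth muscle and fibroblast, myeloid and B cell lists, 1 marker had both T_Dysf libraries above the 6 others. These were *Col1a2* (5.18 and 8.01 normalized counts against at most 4.04), *Fcgr3* (83.7 and 90.7 against at most 55.7) and *Cd79a* (18.1 and 21.4 against at most 17.3). The part of other cells in the *Gja5* level was not tested.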

How the data were processed

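RNA-Seq was made from polyA RNA of sorted P14 CD8+ T cells, isolated with the PicoPure kit, in 4 groups of 2 libraries. Alignment by the authors was with STAR on mm10, and quantification was to RefSeq transcripts in Partek Flow (the STAR version is not given in the sources used here). The deposited values are a signal: estimated read counts of 24303 genes, scaled by the authors with the median-ratio method of DESeq2. The paper's filter on a maximum of 50 had not been applied to the table. All 8 columns were used.

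In each library, the commonest low value was taken as the worth of 1 read. Depth on genes was 19382147 to 24856224 reads. Values under 1000 reads came out whole in 52.3% to 75.7% of cases (tolerance 0.02 reads), so count models were not fitted. The test was limma 3.58.1 in R 4.3.3 (lmFit, then eBayes with a trend), run on log2(normalized count + 1) in 1 fit of all 8 libraries, 4 residual degrees of freedom and no covariate, two-sided, with Benjamini-Hochberg adjustment over all genes. The pseudocount shrinks the fold changes of low genes. A call needed a 2-fold change or more, and an adjusted p under 0.05. The procedure was tested on simulated data in which every changed gene lay well above the floor and changed by clearly more than 2-fold. That test does not cover genes near the floor or changes close to 2-fold.

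*Gja5*, the gene lists and the markers were chosen with earlier results of these data known. The text names the connexins and pannexins, the 10 genes highest by ratio and the 10 by likeness, the neighbours within 500 kb, and of each list the genes called in all 3 T_Dysf comparisons and up to 4 of the highest mean. Other list members are named where a count of 5 or fewer includes them, and *Slc4a4*, *Tmem132e*, *Cd300lb* and the single marker genes were named after their values were seen. Some genes that the rule covers are not reported here. Alternatives were a pseudocount of 0.1 or 10, a minimum of 50 on the mean or the maximum, equal 75th percentiles, equal totals, the 2 groups alone, a replicate block, a RESUB term and leaving out each library. GENCODE vM21 and RefSeq (both GRCm38.p6) gave positions and lengths, and tables and figures from Python 3.11.15 with numpy 2.4.6, pandas 2.3.3, scipy 1.17.1 and matplotlib 3.10.9.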

Additional observations from a re-analysis of the deposited data

How the results depend on the processing

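With 2 libraries a group and 4 residual degrees of freedom, calls of single genes moved with the fit. No gene of the lists that was called in the main fit or in an alternative had the opposite direction in the other. Changes of direction in genes called in neither were not counted. The counts for connexins and pannexins were 0 under each alternative, of which the filters at 50 leave only *Panx1* of the 9 genes, and the *Gja5* level in T_Dysf ran from 3585 to 4001 when a T_Dysf library was left out. Low connexins are limited by depth, since a few reads decide their values.

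For the assembly genes, the count against Acute-7d (2) was 1 with the 2 groups alone and 1 to 2 when a library was left out. The count against Effector (4) was 2 with the 2 groups alone, 1 with the RESUB term and 2 to 5 when a library was left out. For the large-pore channels, the count against Acute-7d (1) was 0 with the 2 groups alone, 0 with the RESUB term and 0 to 1 by leaving out a library. Against Acute-2d (1) it was 2 with the RESUB term and 0 to 2 by leaving out a library, and against Effector (0) 0 to 1. For the heart and vessel factors, the count against Acute-7d (1) was 0 with a pseudocount of 10, with the 2 groups alone, with the replicate block, with the RESUB term and without any 1 library. For the neighbours, the count against Acute-7d (0) was 2 with a mean of at least 50, 2 with a maximum of at least 50, 1 with equal 75th percentiles, 1 with equal totals and 0 to 1 by leaving out a library. Against Acute-2d (3) it was 1 with the 2 groups alone and 1 to 3 by leaving out a library. Against Effector (5) it was 0 with the 2 groups alone, 3 with the replicate block, 0 with the RESUB term and 0 to 4 by leaving out a library. The cause of these shifts was not tested.

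Over all genes, the count against Acute-7d (1353) was 891 with the replicate block, 541 with the RESUB term, 422 without T_Dysf replicate 1, and 540 and 685 without Acute-7d replicates 1 and 2. Against Acute-2d (1787) it was 656 without T_Dysf replicate 1 and 841 without Acute-2d replicate 1. Against Effector (2241) it was 465 with the 2 groups alone, 386 with the RESUB term, 585 without T_Dysf replicate 1 and 1256 without Effector replicate 2. Between Acute-7d and Acute-2d (41) it was 81 with a pseudocount of 0.1, 4 with one of 10, 1 with either filter at 50, 147 with the 2 groups alone, 168 with the RESUB term, 376 without Acute-2d replicate 2, and from 62 to 168 without any other 1 library but Effector replicate 2.

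Whether replicate numbers pair the samples was checked. Over 6 pairs of groups the correlation of the replicate differences across 12028 genes ran from −0.199 to 0.197, with 2 over 0.1, and genes are not independent replicates, so the numbers were not taken as pairs.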
